A study of Mus musculus with 15 samples.

Results

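The carbonic anhydrases described here are 9 mouse genes, Car1, Car2, Car3, Car4, Car7, Car8, Car12, Car13 and Car14, out of 24594 genes counted in sorted small intestinal epithelium. They were chosen by their symbols after their fetal and adult levels had been seen, so the fetal-against-adult values of these 9 genes are a description and carry no test. The table holds 7 further genes of the family, Car5a, Car5b, Car6, Car9, Car10, Car11 and Car15. They are those left after the members were chosen, and they were listed with earlier results of these data known.

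Carbonic anhydrases speed the exchange of carbon dioxide and water with bicarbonate and protons. In the gut they supply bicarbonate and protons to the exchangers that carry salt and acid across the epithelium, and bicarbonate to the secretions that neutralise gastric acid. Some isoforms are soluble in the cytosol (Car1, Car2, Car3, Car7, Car13). Others hold their active site outside the cell, either on a lipid anchor (Car4) or on a membrane-spanning tail (Car12, Car14). Car8 belongs to the carbonic anhydrase-related proteins, which keep the fold of the enzyme but lack a zinc-binding histidine and do not hydrate carbon dioxide.

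The study measured bulk RNA by sequencing in 15 libraries, 3 in each of 5 groups, and 6 of them enter the comparison. The fetal group is epithelium from the proximal intestine of C57Bl/6J mice at E16.5, sorted as EpCAM+/DAPI-/CD31-/CD45- cells, that is, living epithelial cells without the surface proteins of endothelium and blood. The labels give these fetal mice no genotype. The adult group is crypt epithelium of wildtype C57Bl/6J mice, taken from the first 20% of small intestinal length,, sorted as EpCAM+/DAPI-/Lin-/CD24mid cells. The adult protocol words the DAPI step the other way, as an exclusion of DAPI negative cells, so whether the dye marked the cells kept or those discarded rests on the cell type label. No treatment was given to either group. The organoid groups (TetON-hYAP/H2B-mCherry organoids with and without doxycycline, and fetal wildtype organoids) stand in a table of 27179 rows, 0 of them with a gene name, and were not used here. The sort gate and the tissue taken differ between fetal and adult cells together with age, and their parts in any difference cannot be told apart. The library kit is given for the adult group only.

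The 9 members carry the enzyme's zinc site in recognisably aligned form, and the stretch around it shows where Car8 stands apart. Each line gives 7 codons of the member's coding sequence, 5′ to 3′, from the GENCODE M21 transcripts of GRCm38. Capitals mark the codons aligned to those of the first and the second zinc-binding histidine of Car2.
Car1: cagttcCATtttCACtggggc
Car2: cagtttCACtttCACtggggc
Car3: caattcCATcttCACtggggc
Car7: cagctcCACttcCACtggggc
Car13: cagttcCATttgCACtggggg
Car4: cagttgCACctgCACtggtca
Car12: cagctgCACttgCACtggggg
Car14: cagctcCACctgCACtggggt
Car8: gaagttAGAtttCACtgggga
A histidine codon (CAC or CAT) stands in both marked places in 8 members, and in the second place only in 1 member, Car8. The stretch covers coding bases 274 to 294 of Car2 and 343 to 363 of Car8.

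Library totals were 7888998, 7915838 and 10538004 counts for the fetal replicates, and 5795518, 6045113 and 5800348 counts for the adult crypt replicates. Levels below are in CPM, the usual scaling of counts to the size of the library, with sizes adjusted by the trimmed mean of M-values (TMM). Both groups had the markers of epithelium: Epcam and 6 other epithelial genes had sums of 4633 to 4710 CPM in the fetal libraries and of 6838 to 7266 CPM in those of adult crypts. For 6 genes of crypt base stem cells the sums were 161 to 227 CPM in fetal against 7178 to 9707 CPM in adult libraries. Most of the adult sum was Olfm4, with means of 91.0 CPM in fetal and 7484 CPM in adult libraries. Every other gene of that list was lower in fetal cells by less, from 4.10-fold (Lgr5) to 8.67-fold (Smoc2). For 11 genes of mature enterocytes the sums were 6278 to 8130 CPM in fetal against 3192 to 3941 CPM in adult libraries. The enterocyte genes did not all go the same way: in the fit described below 7 were higher and 3 lower in fetal cells. Among the lower ones, Sis averaged 28.7 CPM in fetal and 480 CPM in adult libraries. Goblet cell genes (8 of 8 in the table) summed to 4823 to 7342 CPM in fetal and 17684 to 33233 CPM in adult libraries. Enteroendocrine genes (7 of 7) summed to 2002 to 2745 CPM in fetal and 1814 to 2192 CPM in adult libraries. Most of that was Chgb, with means of 1877 and 1467 CPM. In the same fit 6 of the 7 were higher in fetal cells, and Chga was lower. Tuft cell genes (6 of 6) summed to 10.2 to 13.7 CPM in fetal and 37.5 to 44.5 CPM in adult libraries. Most of that was Plcg2, with means of 8.11 and 34.6 CPM. The 2 tested were lower in fetal cells. Dclk1 went the other way, with 28 fetal and 10 adult counts, too few to test. Genes of other tissues were found in the fetal cells. Pancreatic exocrine genes (12 of 12 in the table) summed to 807 to 1727 CPM in fetal and 10.5 to 17.0 CPM in adult libraries, and mesenchymal genes (11 of 11) to 131 to 190 CPM and 11.1 to 18.2 CPM. Genes of neurons and glia (8 of 8) summed to 48.8 to 70.1 CPM in fetal and 5.19 to 6.11 CPM in adult libraries. Most of that was Ret, with means of 44.4 and 3.76 CPM, and the 4 tested were all higher in fetal cells. The part of these cells in the differences below was not tested.

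Of the 9 members, 6 had enough counts to enter the fit over 13314 genes. Car8 and Car2 lay higher in fetal cells and Car4 and Car12 lower, without overlap of the groups, and the groups of Car13 and Car14 overlapped. No call is made for a member, since the members were chosen with these values known. For other genes the threshold was an adjusted p under 0.05 in edgeR's quasi-likelihood test. In that fit 54.9% of all tested genes passed, 29.0% as higher and 25.9% as lower in fetal cells. The libraries of the groups did not overlap in CPM for 4 of the 6 tested members, against 62.3% of all tested genes. The median log2 fold change was 0.24 over the 6 tested members, beside 0.01 over all tested genes.

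**Figure D1:**
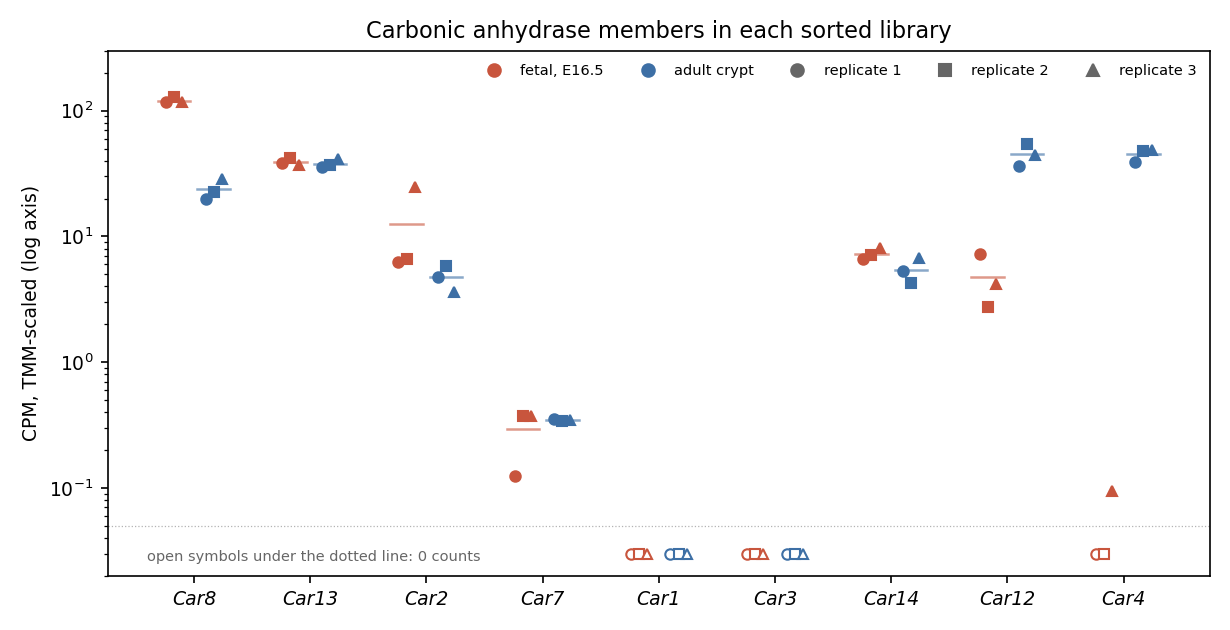
CPM of each member (log axis) in the 3 fetal libraries, left, and the 3 adult crypt libraries, right, with a symbol for each replicate number, a line at the group mean, and open symbols for 0 counts. Car8 lies higher in every fetal library (116 to 127 CPM against 20.0 to 28.5 CPM), Car4 and Car12 lie lower, the Car13 groups overlap, and 1 fetal library lifts the Car2 mean.

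Car8 was the most abundant member in fetal cells. It had 116, 127 and 118 CPM in the fetal libraries, against 20.0, 22.7 and 28.5 CPM in the adult crypt libraries. All 3 fetal libraries lay above all 3 adult libraries, and the fetal values stayed within a narrow band. The means were 120.5 ± 6.05 CPM in fetal and 23.7 ± 4.36 CPM in adult crypt cells (SD, n = 3 each), a log2 fold change of 2.34 ± 0.12 (SE) or 5.07-fold. The product of Car8 is known for binding the inositol trisphosphate receptor in cerebellar neurons, where it lowers the receptor's affinity for its ligand. In these bulk samples a larger share of Car8-expressing cells and more Car8 RNA per cell cannot be told apart, and the same holds for each difference below. Car8 lies on chromosome 4, at 8143362 to 8239041 on the minus strand (GRCm38, GENCODE M21; Entrez 12319).

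Car13 ranked just below the leading member of each group when set per kilobase of exon, and lay at overlapping levels in fetal and adult cells. It had 38.4, 42.3 and 37.1 CPM in fetal and 35.4, 37.3 and 41.1 CPM in adult crypt libraries. The log2 fold change was 0.05 ± 0.11 (SE), and over the 6 fits that left out 1 library it ranged from -0.01 to 0.11. Car13 encodes a cytosolic, active isoform.

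Car2, the fast cytosolic isoform found in red cells, kidney, bone-resorbing osteoclasts and acid-secreting stomach cells, was uneven among the fetal libraries. Its counts were 50, 53 and 262 in the fetal libraries, and 27, 34 and 21 in the adult crypt libraries. In CPM these were 6.24, 6.61 and 24.6 in fetal, against 4.77, 5.77 and 3.63 in adult crypt cells. The groups did not overlap, but fetal replicates 1 and 2 lay close to the highest adult library and replicate 3 far above it. The log2 fold change was 1.43 ± 0.49 (SE) with all libraries and 0.45 without fetal replicate 3. Over the fits that left out 1 library at a time, the log2 fold change of Car2 ranged from 0.45 to 1.76.

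The genes that stood out in fetal replicate 3 beside Car2 included genes of the stomach. Ranked by how far log2 CPM in fetal replicate 3 exceeded the mean of the other fetal libraries, Car2 had rank 13 of 13314 genes, with an excess of 1.89. The genes named here were chosen after their values were seen. Cym, the milk-clotting protease chymosin of the young stomach, had 274 CPM in fetal replicate 3, and 23.2 and 20.7 CPM in fetal replicates 1 and 2. Cldn18, whose protein seals junctions in stomach and lung epithelium, had 66.6 CPM there, and 10.5 and 6.49 CPM in the other fetal libraries. Krt15, a keratin of basal cells in stratified epithelium, had 68.4 CPM there, and 1.37 and 1.62 CPM in the others.

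A list of 11 gastric markers, of which 10 were in the table, was also highest in that library. Their summed level was 7.98, 9.10 and 50.2 CPM in fetal replicates 1, 2 and 3, and 2.65, 5.09 and 3.80 CPM in the adult crypt libraries. The defining genes of the acid-secreting parietal cell were among them. Atp4b, the proton pump's beta subunit, had 0, 1 and 37 counts in the fetal libraries and 0, 1 and 0 counts in the adult crypt libraries. Gastric Muc5ac, a mucin of the stomach surface, had 0, 1 and 35 counts in fetal and 0 counts in each adult crypt library. Of the list, Chia1 was at 0 in all 6 libraries. The part of these genes' cells in the Car2 difference was not tested, and the value without fetal replicate 3 is the one given above.

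**Figure D2:**
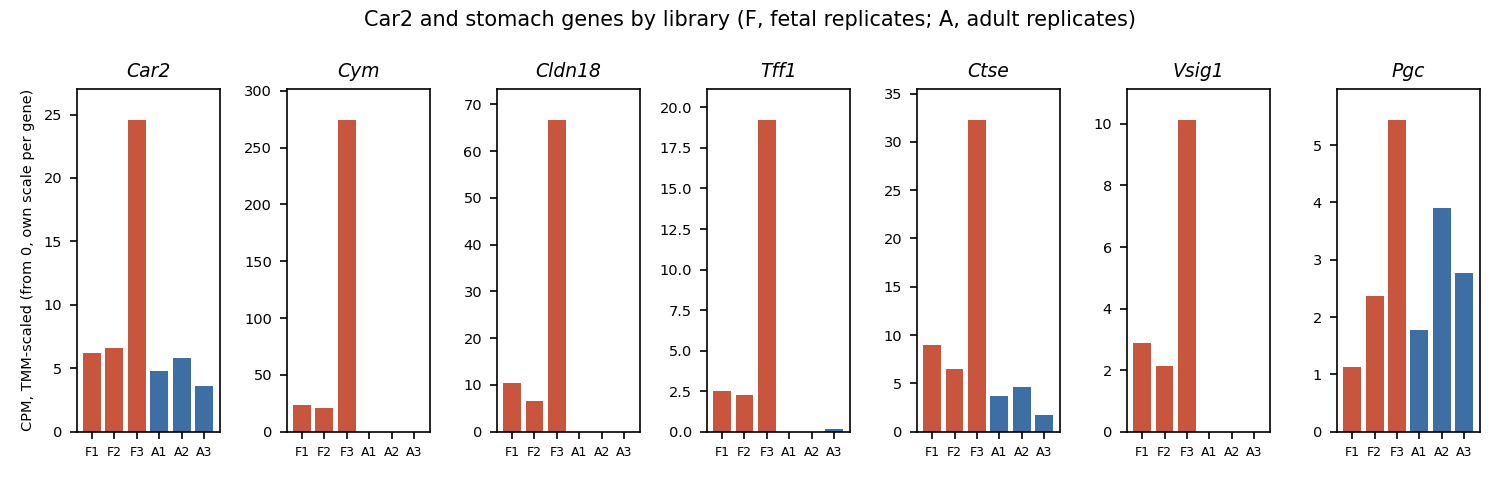
CPM (bars from 0, a scale for each gene) of Car2 and 6 stomach genes in fetal replicates (F1 to F3, left) and adult crypt replicates (A1 to A3, right). Each of the 7 genes is highest in F3, where Car2 reaches 24.6 CPM and Cym 274 CPM. They were taken from the genes with the largest excess in F3 over F1 and F2, so a fetal peak in F3 was set by that choice.

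Car1, Car3 and Car7, the remaining cytosolic members, were at or near the limit of detection. Car1, a major protein of red cells that is also known from colonic epithelium, had 0 counts in all 6 libraries. Car3, the isoform of slow muscle, liver and fat, likewise had 0 counts in all 6. With 3 counts as the limit, 0 counts in a group allow a level of up to 0.112 CPM in the fetal group and 0.173 CPM in the adult group, counting error alone. Car7 had 8 counts over the fetal libraries and 6 over the adult crypt libraries, too few to enter the fit. In the human gut CA7 marks the BEST4+ enterocyte. A list of 7 other genes of that human cell summed to 268 to 290 CPM in the fetal and 521 to 633 CPM in the adult crypt libraries, most of it Cftr. Of the 5 tested, Otop3 and Kcnma1 rose, Cftr fell, and Guca2a and Guca2b did not pass the threshold of the edgeR fit. Otop2 and Spib were too low to test.

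Markers of red cells differed between the groups although Car1 was at 0 in both. The 9 erythroid genes in the table, of 12 listed, summed to 46.3, 79.4 and 60.3 CPM in the fetal libraries, against 2.83, 2.54 and 2.94 CPM in the adult crypt libraries. Hbb-bh1 and Hbb-y, embryonic globins, were at 0 in all 6 libraries. The part of red cells in the Car2 difference was not tested.

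Car1, Car2, Car3 and Car13 are neighbours on chromosome 3 of GRCm38. In order along the chromosome, Car13 lies at 14641727 to 14663002, Car1 at 14766216 to 14808368, Car3 at 14863512 to 14872523 and Car2 at 14886273 to 14900770. The 4 genes span 259044 bases, with 13749 bases between Car3 and Car2. In both groups Car13 at one end was well counted, the middle pair was at 0, and Car2 at the other end was low. The longest run of bases shared by transcripts of Car2 and Car13 was 30, the longest between any members.

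Car4, the lipid-anchored isoform whose active site faces the lumen, was at or near 0 in fetal libraries. It had 0, 0 and 1 counts in the fetal libraries, against 222, 284 and 280 counts in the adult crypt libraries. In CPM these were 0, 0 and 0.0937 in fetal, and 39.2, 48.2 and 48.4 in adult crypt cells, so the groups were far apart. The adult crypt level was 1211 times the fetal level, with a counting interval of 217 to 47881 (exact, 95%), which covers counting error only. The fitted log2 fold change was -9.70 ± 0.34 (SE) and rests on the single fetal count: it was -11.24 without fetal replicate 3, the library that holds it. Car4 is known from the brush border of the gut and from the luminal face of capillaries in lung and kidney.

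Car12, a membrane-spanning isoform with its active site outside the cell, was also lower in fetal cells. It had 7.23, 2.74 and 4.22 CPM in the fetal libraries, against 36.2, 54.0 and 44.6 CPM in the adult crypt libraries. Every fetal library lay below every adult library. The log2 fold change was -3.25 ± 0.25 (SE), from means of 4.73 ± 2.29 CPM in fetal and 44.9 ± 8.86 CPM in adult crypt cells (SD, n = 3 each). By its excess in fetal replicate 1 over the other fetal libraries, Car12 had rank 17 of 13314 genes. The endothelial markers, 7 of 7 in the table, summed to 7.73, 2.12 and 3.09 CPM in fetal and 5.48, 7.63 and 5.70 CPM in adult crypt libraries. These sums mix directions: Esam had 16 counts in fetal and 85 in adult crypt libraries. Cdh5 had 35 and 0, Kdr 14 and 0, Tek 11 and 1, Pecam1 32 and 21, Cldn5 3 and 2, and Emcn 1 and 0. The part of endothelial cells in the Car12 difference was not tested.

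Car14, a further membrane-spanning isoform, was low in both groups. It had 6.61, 7.11 and 8.06 CPM in fetal and 5.30, 4.24 and 6.74 CPM in adult crypt libraries, and the groups overlapped. The log2 fold change was 0.42 ± 0.24 (SE). Its exons share 445 bases with Aph1a on the opposite strand. The strand setting of the counting is not given in the sources used here, so reads of the 2 genes may not have been told apart.

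The promoters of Car4 and Car12, the 2 members lower in fetal cells, are shown because both genes were well counted in adult crypts. Each line gives 250 bases before 1 start site of the gene, 5′ to 3′ on the plus strand, from RefSeq on GRCm38.p6. The RefSeq extent of Car12 begins at 66712296, upstream of the start site used here, 66713686, so the Car12 values hold for this window only. Capitals mark matches to 5 motifs searched on both strands: TATAAA (the TATA box), GGGCGG (the GC box), GATAA (GATA factors), ACGTG (the core of the hypoxia response element) and GGAATG (TEAD factors).
Car4, chr11:84957504-84957753: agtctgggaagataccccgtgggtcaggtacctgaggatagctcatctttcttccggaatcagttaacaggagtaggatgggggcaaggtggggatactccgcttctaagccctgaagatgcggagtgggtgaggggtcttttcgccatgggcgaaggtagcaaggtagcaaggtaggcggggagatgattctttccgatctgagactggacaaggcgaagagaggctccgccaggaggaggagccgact
Car12, chr9:66713436-66713685: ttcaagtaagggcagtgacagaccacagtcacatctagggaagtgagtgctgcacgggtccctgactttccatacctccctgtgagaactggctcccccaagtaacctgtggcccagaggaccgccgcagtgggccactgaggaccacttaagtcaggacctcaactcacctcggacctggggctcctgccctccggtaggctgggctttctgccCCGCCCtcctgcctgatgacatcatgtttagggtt
Car12 held 1 match, to GGGCGG, which lies on the minus strand in this window, and Car4 held none. Of 32851 promoter windows of the same length, 12.4% held TATAAA, 32.7% GGGCGG, 22.6% GATAA, 16.6% ACGTG and 12.6% GGAATG. G and C made up 56.4% of the Car4 window and 59.2% of the Car12 window, beside a median of 52.4% over all windows. The ratio of observed to expected CpG was 0.610 for Car4 and 0.276 for Car12, beside a median of 0.374. RefSeq windows were matched for 4 members, Car4, Car7, Car12 and Car14. None was matched for the other 5, among them Car8 and Car13, which were also well counted in adult crypts. The Car14 window, not shown, held 1 match to ACGTG and 1 to GGAATG.

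Set per kilobase of exon, the summed level of the 9 members was made up of different genes in fetal and adult cells. Lengths were those of all GENCODE exons of a gene joined. The sum was 57.1 ± 3.87 CPM per kb in fetal and 55.8 ± 5.60 CPM per kb in adult crypt cells (SD, n = 3 each). How the sums compare depends on the length and on the genes taken in. Per kb of coding sequence the members summed to 215.9 ± 11.5 in fetal and 178.4 ± 19.4 CPM per kb in adult crypt cells. All 16 family genes summed to 65.3 ± 4.92 CPM per kb of exon in fetal and 84.7 ± 5.68 in adult crypt cells. Per kb of coding sequence those 16 genes summed to 230.7 ± 13.7 in fetal and 230.2 ± 19.8 CPM per kb in adult crypt cells (SD, n = 3 each). Per kb of exon, Car8 made up 54.9% of the members' sum in fetal and 11.0% in adult crypt cells. Car4 made up 0.0262% and 41.2%, and Car13 30.0% and 29.7%.

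Among the members, the level per kb of exon in fetal cells was highest for Car8 (31.3), then Car13 (17.1), Car2 (5.15), Car14 (2.86), Car12 (0.623), Car7 (0.0801) and Car4 (0.0159). Car2 and Car14 overlapped between libraries, as did Car7 and Car4, and the other neighbours with counts did not. In adult crypt cells the order of the members was Car4 (23.0), Car13 (15.4 to 17.9 over the 3 libraries), Car8 (6.16), Car12 (5.91), Car14 (2.13), Car2 (1.95) and Car7 (0.0952). Car8 and Car12 overlapped there, and so did Car14 and Car2. Part of the adult order depends on the length used. Per kb of coding sequence, Car12 at 41.8 stood above Car8 at 27.2 CPM per kb and Car2 above Car14, while Car4 at 49.4 and Car13 at 48.3 stayed in front. Car9, outside the members, stood at 7.14 CPM per kb of exon in fetal and 27.3 in adult crypt cells. Its adult libraries (26.2 to 28.5) lay above those of Car4 (20.0 to 24.6). Per kb of coding sequence its adult level was 48.0.

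Grouped by where the protein works, the membrane-bound members (Car4, Car12, Car14) were 6.13% of the fetal sum and 55.6% of the adult crypt sum. The cytosolic active members were 36.4, 36.9 and 43.4% of the sum in the fetal libraries, highest in replicate 3, the library high in Car2, and 35.3, 32.3 and 32.5% in the adult crypt libraries. Their means of 38.9% in fetal and 33.4% in adult crypt cells became 30.6% and 30.8% per kb of coding sequence, which turns the order. Over all 16 family genes of the table the membrane-bound group, with Car9 and Car15 added, was 11.5 ± 1.36 CPM per kb in fetal and 59.7 ± 4.04 CPM per kb in adult crypt cells (SD, n = 3 each). The acatalytic group, Car8 with Car10 and Car11, was 31.3 ± 1.60 and 6.25 ± 1.11 CPM per kb, nearly all of it Car8.

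**Figure D3:**
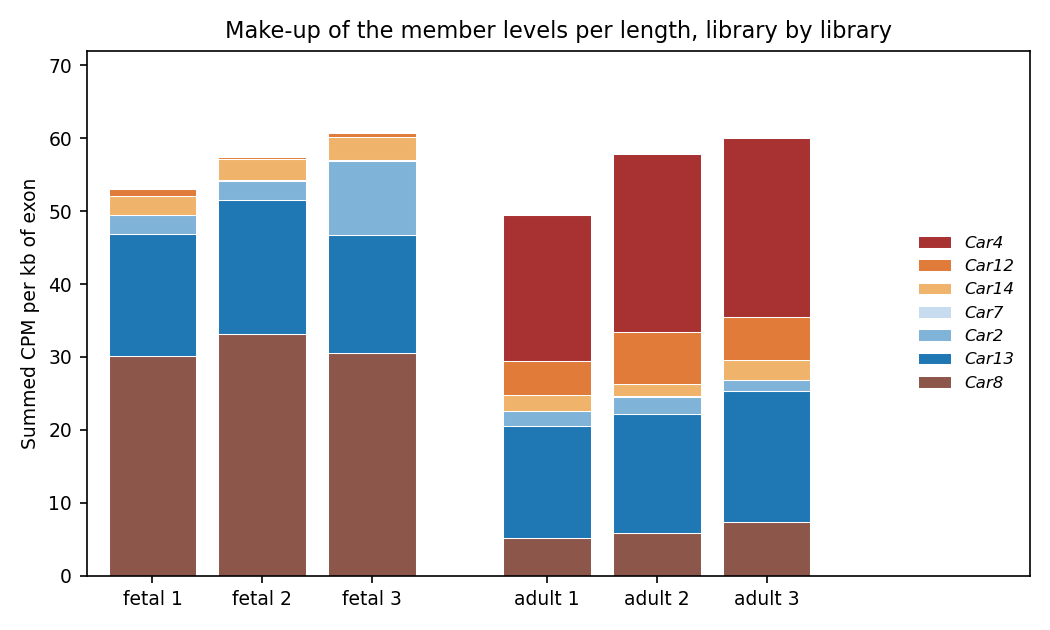
Summed CPM per kb of exon of the members in each fetal library (left) and adult crypt library (right), stacked by gene, with Car1 and Car3 at 0. Car8 is the largest block in fetal libraries (54.9% on average) and Car4 in adult crypt libraries (41.2%).

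Car9, the hypoxia-inducible membrane isoform of the stomach and of many tumours, was not a member and had enough counts to be tested. It was listed with earlier results of these data known. It had 14.1, 20.1 and 15.2 CPM in fetal, against 62.8, 65.7 and 60.3 CPM in adult crypt libraries. Car9 fell in fetal cells, with a log2 fold change of -1.94 ± 0.13 (SE) and an adjusted p of 6.75e-08 in edgeR's quasi-likelihood test. An antisense gene, Gm12454, shares 214 exon bases with it. Car15, a lipid-anchored isoform in the mouse, had 0.873, 1.87 and 2.06 CPM in fetal and 2.30, 2.71 and 2.25 CPM in adult crypt libraries, a log2 fold change of -0.57 ± 0.38 (SE) that did not pass (edgeR adjusted p = 0.225). It shares 1253 exon bases on the same strand with Gm20518, so its counts are uncertain. Car5b (9 counts in fetal and 14 in adult crypt libraries), Car5a (4 and 0), Car10 (2 and 0), Car11 (2 and 3) and Car6 (0 and 5) were too low to test.

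Genes that move bicarbonate, chloride, protons, lactate and water beside carbonic anhydrases changed in both directions. Over 6 lists with 76 genes in the table, 50 were tested, of which 22 rose, 19 fell and 9 did not pass the edgeR threshold. The median log2 fold change of the 50 was -0.12. The call rates among all tested genes, given above, are the measure to set these counts beside. The lists were written with earlier results of these data known.

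Of the bicarbonate and chloride transporters, 14 of 21 were tested, 8 rose and 4 fell (median log2 fold change 0.39). Slc26a9, a chloride transporter of stomach and airway, had 65, 88 and 116 counts in fetal and 0 counts in each adult crypt library, at least 58.2-fold higher in fetal cells. Slc4a1, the anion exchanger of red cells, had 34, 56 and 59 counts in fetal and 0 in each adult crypt library, at least 32.2-fold higher, beside the erythroid sums given above. The anion exchanger Slc4a3 rose by a log2 fold change of 4.78 ± 0.54 (SE), on 4 counts in adult crypts, and the sulfate and oxalate exchanger Slc26a1 by 2.75 ± 0.25 (SE). Both were higher in all 3 fetal libraries than in any adult library.

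Cftr, the apical chloride and bicarbonate channel, was among those that fell: it averaged 209.5 ± 22.1 CPM in fetal and 490.8 ± 63.0 CPM in adult crypt cells (SD, n = 3 each), a log2 fold change of -1.23 ± 0.11 (SE). The basolateral sodium-bicarbonate cotransporter Slc4a4 fell as well, with 80.6 ± 9.77 CPM in fetal and 157 ± 21.6 CPM in adult crypt cells (SD, n = 3 each; log2 fold change -0.96). The apical exchanger Slc26a6 changed by -1.48 ± 0.12 and the cotransporter Slc4a5 by -2.58 ± 0.19 (log2 ± SE). The edgeR adjusted p of these 4 genes ran from 1.36e-07 for Slc4a5 to 1.22e-05 for Slc4a4.

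Of the proton exchangers, pumps and channels, 13 of 18 were tested, 5 rose and 7 fell (median log2 fold change -0.38). Slc9a2, a sodium-proton exchanger of the intestinal surface, averaged 5.06 ± 2.29 CPM in fetal and 58.9 ± 5.95 CPM in adult crypt cells (SD, n = 3 each), a log2 fold change of -3.49 ± 0.22 (SE; edgeR adjusted p = 2.53e-08). Slc9a5, another exchanger of this family, changed by -2.74 ± 0.34, and the exchanger cofactors Chp2 and Chp1 by -1.26 ± 0.14 and -0.61 ± 0.10 (log2 ± SE). The scaffolds that hold apical exchangers in the brush border rose: Slc9a3r2 by 1.40 ± 0.35, Pdzk1 by 0.78 ± 0.14 and Slc9a3r1 by 0.75 ± 0.10 (log2 ± SE). Atp4a, the alpha subunit of the gastric proton pump, had 15, 17 and 67 counts in fetal and 5, 6 and 5 counts in adult crypt libraries. Its log2 fold change was 1.92 ± 0.55 (SE; edgeR adjusted p = 0.00968), and 1.11 with an adjusted p of 0.0582 without fetal replicate 3, the library high in Car2.

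Of the monocarboxylate transporters and their chaperones, 5 of 7 were tested, 3 rose and 1 fell (median log2 fold change 1.89). Slc16a3, the lactate exporter of glycolytic cells, had 25.3, 28.9 and 15.6 CPM in fetal and 6.36, 4.07 and 1.56 CPM in adult crypt libraries (log2 fold change 2.53 ± 0.35, SE). Slc16a7 rose by 2.95 ± 0.49 and the chaperone Emb by 1.89 ± 0.17, while Slc16a1, a carrier of lactate and butyrate, fell by 0.58 on the log2 scale. Among enzymes that use bicarbonate, 9 of 10 were tested, 2 rose and 3 fell (median -0.16). Mccc1, of leucine breakdown, rose by 0.81 ± 0.13, and both propionyl-CoA carboxylase subunits changed by -0.72 ± 0.13 (Pcca) and -0.40 ± 0.11 (Pccb) (log2 ± SE). Acaca, of fatty acid synthesis, passed narrowly at 0.35 ± 0.13 (edgeR adjusted p = 0.0364) and did not pass without fetal replicate 1 or 3, without adult replicate 1 or 2, or by DESeq2. Its adjusted p then ran from 0.0574 to 0.148.

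All 6 tested aquaporins of 11 in the table changed, 4 upward and 2 downward (median log2 fold change 2.29). Aqp1, the water channel of red cells, capillaries and secretory ducts, averaged 11.4 ± 2.60 CPM in fetal and 162 ± 31.9 CPM in adult crypt cells (SD, n = 3 each), a log2 fold change of -3.84 ± 0.17 (SE; edgeR adjusted p = 1.42e-09). Aqp4, a basolateral water channel, averaged 22.1 ± 3.84 CPM in fetal and 206 ± 7.74 CPM in adult crypt cells (SD, n = 3 each), a log2 fold change of -3.23 ± 0.12 (SE). Aqp8 had 10.6, 22.2 and 14.3 CPM in fetal and 0.354, 0 and 0.346 CPM in adult crypt libraries. Aqp8 is known from pancreatic acinar cells as well as gut, and was highest in fetal replicate 2, the library with the highest pancreatic exocrine sum, and the part of such cells was not tested. Aqp3 had 49, 60 and 179 counts in fetal and 0, 11 and 2 counts in adult crypt libraries. It rose by 3.75 ± 0.64 (log2 ± SE), a value that was 5.75 without adult replicate 2, 3.16 without fetal replicate 3 and 3.19 without adult replicate 1. Aqp11 rose by 0.83 ± 0.11 (log2 ± SE).

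**Figure D4:**
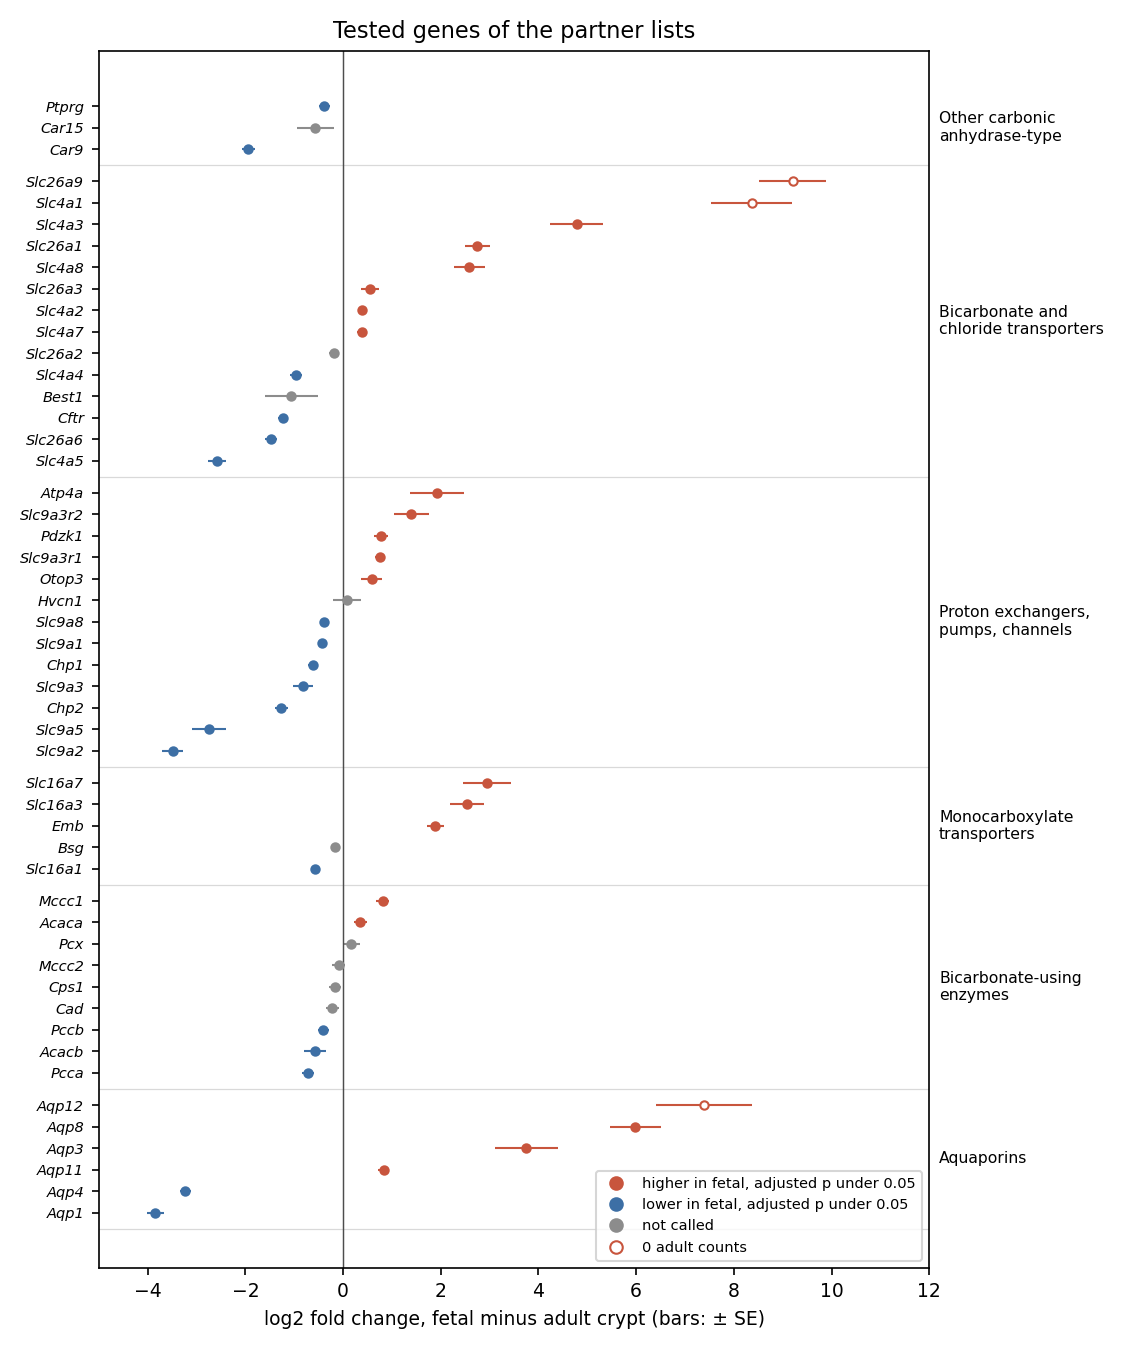
Log2 fold change, fetal minus adult crypt, with its SE, for the 50 tested genes of the 6 lists, in red for the 22 that rose, blue for the 19 that fell and grey for the 9 that did not pass. Both directions are found in each list but the first, and open circles mark genes with 0 adult counts, whose fitted value is no bound.

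For the 4 members with a mean of at least 10 CPM, the genes of most similar profile were found by the Euclidean distance of centred log2 CPM over the 6 libraries, among 9770 genes. Car8 was nearest to Crtap (distance 0.172), Acot2 (0.194) and Zfp618 (0.221). Car4 was nearest to Pigr (0.456), Prelp (0.562) and Apol10a (0.596). Car12 was nearest to Cttnbp2 (0.645), Cerk (0.695) and Rasa3 (0.783), and Car13 to Hexa (0.0843), Ap1m2 (0.0868) and Dusp7 (0.0983). The distance takes in the fetal-against-adult difference, which was known when the members were chosen.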

How the data were processed

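RNA of 6 sorted libraries (3 fetal, 3 adult crypt) was analysed from the deposited count table, whose whole-number values per Entrez gene are raw counts by the authors, judging from unequal column totals. Per the submitters' processing notes, mm10 and edgeR were used. Which aligner, annotation and strand setting were used is not given in the sources used here. Adult libraries were made with a stranded total RNA kit for low input (SMARTer, Pico), per the labels' protocols, and no kit is named for the fetal ones. Groups came from the sample titles. Whether each sorted library is a separate animal is not said in the labels, so a p-value measures the spread among these libraries alone, and that spread may be technical. No 2 libraries agreed within sampling noise.

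Counts were scaled by TMM, filtered with filterByExpr and fitted with edgeR 4.0.16 (R 4.3.3) by group, with a quasi-likelihood test and Benjamini-Hochberg adjustment over 13314 genes. The script was tested on simulated data. The named genes were all members, every other carbonic anhydrase gene, up to 4 called genes per list and direction with the largest fold among those with average log2 CPM of at least 1 and groups that did not overlap, and the 3 nearest profiles of each well-counted member. The members and lists were chosen with earlier results of these data known. Rows without a symbol (7, each with an Entrez identifier) stayed in the fit. Alternatives were DESeq2 1.42.0, other size factors, other filters on low counts, leaving out Rn45s, leaving out each library, a replicate block and coding length. Gene lengths, overlaps and transcripts came from GENCODE M21, promoters from RefSeq (GRCm38.p6). A bound against 0 counts used 3 counts per group.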

Additional observations from a re-analysis of the deposited data

How the results depend on the processing

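Leaving out 1 library at a time, the log2 fold change ranged from 0.45 to 1.76 for Car2 and from 2.23 to 2.50 for Car8. It ranged from -3.64 to -3.00 for Car12 and from -11.24 to -9.31 for Car4. The lowest value of Car2 was the one without fetal replicate 3. Genes called higher in fetal cells numbered 3450 to 3938 and those called lower 2947 to 3323 over the same fits, against 3859 and 3445 with all libraries. Among the 32 named genes outside the members, 410 of 416 values under 13 settings kept their call and 0 reversed. The 6 that lost it were 5 of Acaca and 1 of Atp4a, given in the report. The list of proton exchangers, pumps and channels counted 3 rather than 5 genes higher without fetal replicate 3.

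Coding length in place of exon length moved the make-up of the members' sum. Car8 was then 64.1% of the fetal sum, and Car4 27.7% and Car13 27.1% of the adult crypt sum. The membrane-bound members were 5.34% of the fetal sum, and the cytosolic active members 30.6% of the fetal and 30.8% of the adult crypt sum. The summed level became 215.9 CPM per kb in fetal and 178.4 in adult crypt cells for the members, and 230.7 and 230.2 for all 16 family genes.

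With the replicate number as a replicate block, 3680 genes were higher and 3206 lower. Set against the threshold used for other genes, 2 members were higher and 2 lower, both in that fit and in the main fit. All tested genes stood at 29.0% higher and 25.9% lower in the main fit. The members higher numbered 1 without fetal replicate 3, adult replicate 1 or adult replicate 3, and 2 in every other setting. The members lower numbered 2 throughout. These counts are a description and no call, since the members were chosen with their values known. After centring on each group's mean, same-numbered fetal and adult libraries correlated at -0.06, -0.04 and -0.09, and differently numbered ones at -0.003 to 0.06. These values show no pairing by number, and whether a batch was shared cannot be told from them. DESeq2 gave 4003 higher and 3144 lower. Counts of 0 to 8 for Car1, Car3, Car7 and fetal Car4 limit what can be said of them.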
